A study of Saccharomyces cerevisiae with 4 samples.

Results

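The genes described here encode the nuclear subunits of the yeast respiratory chain and of ATP synthase, the machines of the inner mitochondrial membrane that pass electrons to oxygen and use the resulting proton gradient to make ATP. They were taken by systematic name from a fixed list of 44 genes in 8 groups, which are the NADH dehydrogenases, complexes II, III and IV, cytochrome c, the F1 and the Fo and stator parts of ATP synthase, and the ATPase inhibitors with their stabilising factors. The value table held 5500 reading frames, and 38 of the 44 genes had a row in it. A value on all 4 arrays, which the test required, was present for 26 of them and for 3840 reading frames in all. Another 7 members had values on 1 to 3 arrays, and 5 (COX4, COX13, CYT1, ATP1 and STF2) had a row without any value. The remaining 6, COX12, QCR10, ATP18, ATP19, TIM11 and STF1, were not analysed here.

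Budding yeast (Saccharomyces cerevisiae) has no proton-pumping complex I. Single-protein NADH dehydrogenases on either face of the inner membrane and succinate dehydrogenase (complex II) reduce ubiquinone, complex III passes the electrons to cytochrome c, and complex IV hands them to oxygen. Most subunits are encoded in the nucleus, a few core ones in the mitochondrial genome, and on glucose many of the nuclear genes are repressed and the cells mainly ferment.

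On 4 two-colour microarrays, polyadenylated RNA of a bre1 strain was hybridised together with RNA of wild-type yeast. BRE1 encodes the ubiquitin ligase that acts with Rad6 on histone H2B. Arrays 1 and 3 held bre1 RNA in the dye Cy3 beside wild-type RNA in Cy5, and the dyes were exchanged for arrays 2 and 4. The labels name the strains only as bre1 and wild-type. They give no mutation type, strain background, medium or carbon source. They do not say either whether separate cultures were used, and the p-values reflect array-to-array spread that may be purely technical.

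Each value is a log ratio as the authors deposited it, read here as a log2 ratio of bre1 over wild type. That direction is likely and not settled: the sample descriptions put bre1 first, and BRE1 (YDL074C) had ratios of -1.65 and -3.17 on arrays 1 and 3, the only arrays with a value for it. On the opposite reading every "higher" below would be "lower". Over the 3840 genes the arrays of opposite dye correlated positively (Pearson r from 0.20 to 0.65 across genes, which are not independent replicates), so no array was turned. Each array gave 4354 to 4759 values with a median between -0.05 and 0.07, and an SD over genes between 0.49 and 0.67. A ratio of whole cultures cannot tell a change in every cell from a change in some of them.

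The first comparison asked which of these genes differed between bre1 and wild type. Of the 26 tested, 6 were higher in bre1 (QCR7 and QCR8 of complex III, COX5A of complex IV, and ATP7, ATP14 and ATP16 of ATP synthase), by 1.63-fold to 2.52-fold. Only 1 member was called lower, NDE1, the gene of an external NADH dehydrogenase, by 0.96 on the log2 scale. The mean of each gene was tested against 0 with limma, and a gene was called where its p, adjusted over all 3840 genes, was under 0.05. Of all genes tested, 10.7% passed: 5.89% of all were higher and 4.79% of all were lower, against 23.1% of the members higher. The median of the 26 means was 0.23, and that of all genes was 0.02. A mean above 0 was seen for 20 of the 26 members, against 52.6% of all genes. All 4 arrays were above 0 for 11 members, against 19.1% of all genes, and below 0 for 1 member, NDE1, against 16.6%.

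The number of calls moved with the arrays that entered. With an array left out a fit had 3 arrays and unbalanced dye orientations. A call could therefore be lost without its mean moving toward 0. Without array 2 the means of ATP14 and ATP16 rose to 1.1 and 0.96, while those of QCR8, QCR7, COX5A, ATP7 and NDE1 moved toward 0. Without array 1 only QCR8 passed, without array 3 there were 5 calls (QCR8, ATP7, ATP14, ATP16 and NDE1), and without array 4 there were 8, COX5B and ATP20 joining and COX5A dropping out. Without array 2 neither a member nor any of the 3840 genes passed in limma, although 12 members had an unadjusted p under 0.05, as did 815 of all genes, and the smallest adjusted p of a member was 0.0525, that of QCR8. The 7 genes kept their sign whichever array was left out. This had to be so, because each of them had all 4 arrays on the same side of 0.

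**Figure D1:**
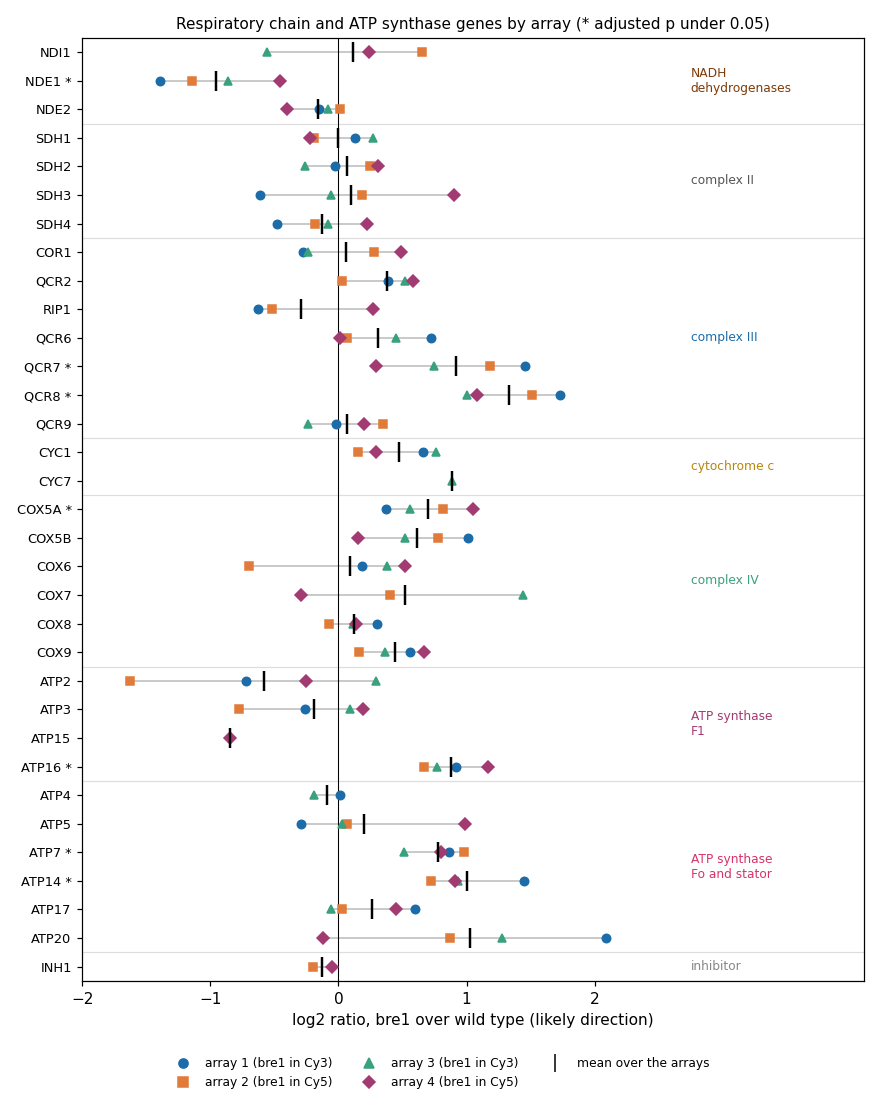
Log2 ratio of bre1 over wild type (horizontal axis) for each of the 33 members with a value, grouped by complex; symbols are single arrays, the grey line spans their range, the black bar is their mean and an asterisk marks an adjusted p under 0.05. QCR8, ATP14, ATP16 and ATP7 are among the 11 tested members that lie right of 0 on all 4 arrays. NDE1 lies left of 0 on all 4, and the complex II genes straddle 0.

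The NADH dehydrogenases feed electrons into the chain at ubiquinone. NDE1 (YMR145C), whose product oxidises cytosolic NADH at the outer face of the inner membrane, had log2 ratios of -1.39, -1.14, -0.86 and -0.46 on arrays 1 to 4. All 4 arrays were below 0, and array 4 was the closest to it. The mean was -0.96 ± 0.40 (SD, n = 4 arrays; adjusted p = 0.0207), which is 1.95-fold lower in bre1. The call was lost without array 1 (adjusted p = 0.0757) or array 2 (0.101).

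NDE2 (YDL085W), which encodes the second external enzyme, had values of -0.15, 0.01, -0.08 and -0.40 on the same arrays. Its mean of -0.16 ± 0.18 did not pass (adjusted p = 0.523), and the 95% interval of the mean ran from -0.50 to 0.18. Within each array NDE1 lay below NDE2, by 1.24, 1.15, 0.78 and 0.06 on the log2 scale, so on array 4 the 2 genes had nearly the same ratio. NDI1 (YML120C), the internal enzyme that takes NADH from the matrix, had values on 3 arrays, 0.65, -0.56 and 0.24 on arrays 2 to 4, which spread to both sides of 0.

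Complex II, succinate dehydrogenase, links the tricarboxylic acid cycle to the chain. All 4 of its genes were measured on every array and none passed the test. SDH1 (YKL148C), the flavoprotein that oxidises succinate, had a mean of -0.00 ± 0.24 (SD, n = 4), and SDH2 (YLL041C), the iron-sulphur subunit, 0.07 ± 0.27. The membrane anchors SDH3 (YKL141W) and SDH4 (YDR178W) had means of 0.10 ± 0.63 and -0.13 ± 0.29. The 95% intervals of the 4 means lay within -0.50 and 0.63, and no adjusted p was below 0.635. SDH3 had the widest spread, from -0.61 on array 1 to 0.90 on array 4.

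Complex III, the cytochrome bc1 complex, had 2 of its 6 tested genes higher. QCR8 (YJL166W), a small subunit next to the ubiquinone pocket, had log2 ratios of 1.73, 1.51, 1.0 and 1.08 on arrays 1 to 4. Array 3 was the lowest, and the gene stood above 97.4% of the values or higher on each array. Its mean was 1.33 ± 0.35 (SD, n = 4; adjusted p = 0.00711), a 2.52-fold rise and the 12th highest mean of all 3840 genes. It was also the member with the smallest adjusted p.

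QCR7 (YDR529C), another small subunit, needed for assembly of the complex, had values of 1.46, 1.18, 0.75 and 0.29. The arrays were all above 0 but fell over a wide range, with array 4 lowest. The mean was 0.92 ± 0.51 (1.89-fold; adjusted p = 0.0309). This call was lost without array 1, 2 or 3 (adjusted p from 0.0615 to 0.137).

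The other subunits of complex III did not pass. The core proteins COR1 (YBL045C) and QCR2 (YPR191W) had means of 0.06 ± 0.38 and 0.38 ± 0.25. The acidic hinge protein gene QCR6 (YFR033C) had a mean of 0.31 ± 0.33, and QCR9 (YGR183C), a small membrane subunit, 0.07 ± 0.26. QCR2 and QCR6 were above 0 on every array, whereas COR1 and QCR9 were below 0 on arrays 1 and 3 and above 0 on arrays 2 and 4, that is, by dye orientation. RIP1 (YEL024W), the Rieske iron-sulphur protein that carries out the electron transfer to cytochrome c1, was measured on 3 arrays at -0.63, -0.52 and 0.27 on arrays 1, 2 and 4. These 3 values span 0 and were not tested.

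Cytochrome c, the soluble carrier between complexes III and IV, has an aerobic form encoded by CYC1 and another form, raised at low oxygen, encoded by CYC7. CYC1 (YJR048W) had values of 0.66, 0.15, 0.76 and 0.29, all above 0. Its mean was 0.47 ± 0.29 (SD, n = 4) and missed the threshold (adjusted p = 0.096). CYC7 (YEL039C) had a single value, 0.89 on array 3, where CYC1 lay 0.14 lower.

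Complex IV, cytochrome c oxidase, had 1 of its 5 tested genes higher. COX5A and COX5B encode alternative forms of the same subunit, of which COX5A is the aerobic and COX5B the low-oxygen form. COX5A (YNL052W) had values of 0.37, 0.82, 0.56 and 1.05 on arrays 1 to 4. All were above 0, and the mean was 0.70 ± 0.30 (SD, n = 4; 1.63-fold; adjusted p = 0.0344). The call was lost whichever array was left out (adjusted p from 0.053 to 0.138).

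COX5B (YIL111W) was above 0 on all 4 arrays too, at 1.01, 0.78, 0.52 and 0.15. The mean was 0.61 ± 0.37, close to that of COX5A, and missed the threshold (adjusted p = 0.0575). COX5A minus COX5B was -0.64, 0.04, 0.04 and 0.91 on the 4 arrays, a mean difference of 0.09 ± 0.63 (SD, n = 4) whose sign changed between arrays. The 2 genes share sequence, and how far a probe reads both was not tested.

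The means of the other measured complex IV genes were above 0, and none passed the test. COX9 (YDL067C), a small membrane subunit, had a mean of 0.44 ± 0.22 with all arrays above 0 (adjusted p = 0.0972). COX8 (YLR395C), another small membrane subunit, had 0.12 ± 0.16. COX6 (YHR051W), a matrix-facing subunit, was at -0.70 on array 2 and between 0.18 and 0.52 on the others, with a mean of 0.09 ± 0.55. COX7 (YMR256C) was measured on arrays 2 to 4 only and was outside the test, at 0.40, 1.44 and -0.29, the widest spread in this complex.

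ATP synthase is built from the catalytic F1 head in the matrix, whose central stalk is turned by the Fo ring in the membrane, and from a stator that holds the head still. ATP16 (YDL004W), the delta subunit at the foot of the central stalk, had values of 0.92, 0.67, 0.77 and 1.17. They lay close together, with a mean of 0.88 ± 0.22 (SD, n = 4; 1.84-fold; adjusted p = 0.0181). The call was lost without array 1 (adjusted p = 0.0647) or array 2 (0.0715).

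The other F1 genes did not share this. ATP2 (YJR121W), the beta subunit that makes the ATP, had values of -0.72, -1.63, 0.29 and -0.25, and ATP3 (YBR039W), the gamma subunit of the central stalk, -0.26, -0.78, 0.09 and 0.19. Both had their lowest value on array 2, and their means of -0.58 ± 0.81 and -0.19 ± 0.44 did not pass (adjusted p = 0.193 and 0.544). ATP15 (YPL271W), the epsilon subunit, had a single value of -0.85 on array 4.

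Of the 5 tested Fo and stator genes 2 were higher, both of the stator. ATP14 (YLR295C), subunit h, had values of 1.45, 0.72, 0.93 and 0.91, a mean of 1.0 ± 0.31 (2.01-fold; adjusted p = 0.0156). ATP7 (YKL016C), subunit d, had 0.86, 0.98, 0.51 and 0.80, a mean of 0.78 ± 0.20 (1.72-fold; adjusted p = 0.0216). No array of either gene was below 0.51, and both calls were lost without array 1 (adjusted p = 0.0626 for ATP14 and 0.0893 for ATP7) or array 2 (0.0589 and 0.106).

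ATP20 (YPR020W), subunit g, which helps ATP synthase form dimers, had the highest single value of any member. Its ratios were 2.09, 0.87, 1.28 and -0.12 on arrays 1 to 4, so that array 4 alone was not above 0. The mean of 1.03 ± 0.92 was 2.04-fold higher but missed the threshold (adjusted p = 0.0595), and without array 4 the mean was 1.41 and passed (0.00574). ATP5 (YDR298C), the stator protein on top of the head, ran the other way between arrays, at 0.99 on array 4 and between -0.29 and 0.07 on the others. ATP17 (YDR377W), subunit f, had a mean of 0.26 ± 0.32, and ATP4 (YPL078C), subunit b of the stator, was measured at 0.01 and -0.19 on arrays 1 and 3. INH1 (YDL181W), the inhibitor that stops ATP synthase from running backwards, had values of -0.20 and -0.05 on arrays 2 and 4 and was outside the test.

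The second comparison set the complexes beside each other. The Fo and stator genes had the highest median log2 ratio, 0.78 over 5 genes, followed by complex IV at 0.44 over 5 and complex III at 0.35 over 6. Complex II had a median of 0.03 over 4 genes, F1 -0.19 over 3 and the NADH dehydrogenases -0.56 over 2, while the median of all genes was 0.02. On single arrays the Fo and stator median lay between 0.51 and 0.86, that of complex III between 0.32 and 0.56 and that of complex IV between 0.16 and 0.52. Complex II ranged from -0.26 to 0.27 and F1 from -0.78 to 0.29. Without array 2 the F1 median was 0.01 in place of -0.19. Members of a complex share the arrays and are not replicates of it, so no test is given for these medians.

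**Figure D2:**
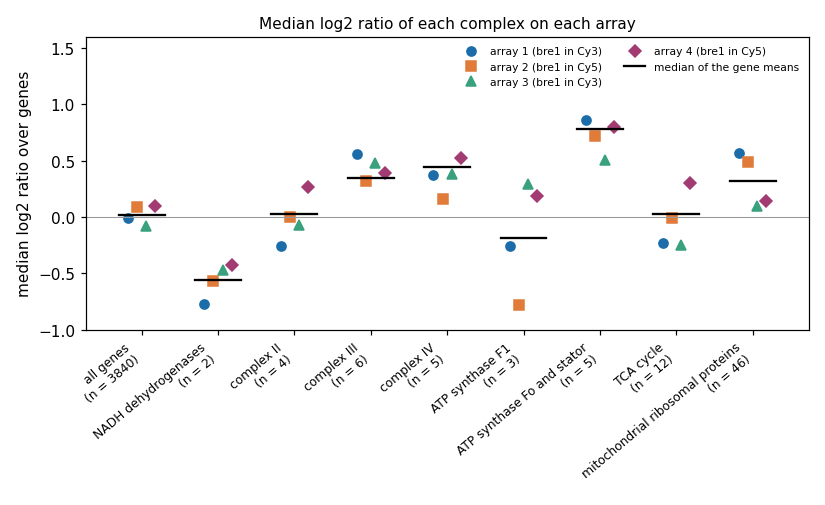
Median log2 ratio (vertical axis) over the tested genes of all genes, of 6 groups of members and of 2 other mitochondrial groups; symbols are single arrays and the black line is the median of the gene means. Complexes III and IV and the Fo and stator genes lie above 0 on all 4 arrays, the NADH dehydrogenases lie below it, and complex II and F1 have arrays on both sides.

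Taken within each array, the median of complex III exceeded that of complex II by 0.82, 0.31, 0.56 and 0.12 on arrays 1 to 4, a mean of 0.45 ± 0.30 (SD, n = 4). Complex IV exceeded complex II by 0.37 ± 0.21, also on all 4 arrays. On average the gap was larger between the parts of ATP synthase, where F1 stands on 3 genes. The Fo and stator median lay above the F1 median by 1.12, 1.5, 0.22 and 0.61, a mean of 0.86 ± 0.57. On array 3 this gap was smaller than those of complexes III and IV over complex II (0.56 and 0.46). Between complexes III and IV the order depended on how the medians were taken: within arrays complex III was the higher on arrays 1 to 3 and the lower on array 4 (mean difference 0.08 ± 0.14), whereas the median of the gene means was higher for complex IV.

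Gene length moved with these differences and is given beside them. Over the 26 tested members the mean log2 ratio and log2 gene length had a Pearson r of -0.64 and a Spearman rho of -0.68, and over the 3821 tested genes with an annotated length r was -0.27 and rho -0.26 (correlations across genes that share the same 4 arrays, given as a description). Among the members r was between -0.62 and -0.47 on each array. The tested Fo and stator genes had a median length of 375 bp, complex III 429 bp, complex IV 447 bp, complex II 699 bp and F1 936 bp, which is the reverse order of their median ratios apart from complexes III and IV, whose order was not settled. The NADH dehydrogenase genes, with the lowest median ratio, are over 1500 bp long.

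The members were also set beside genes of their own length. Of the 13 tested members of up to 500 bp, 5 were higher, with a median of 0.47. Of all 294 tested genes of that length 20.7% were higher, with a median of 0.36, and 8 of the 13 members lay above that median. Of the 7 members over 500 and up to 1000 bp long 1 was higher, ATP7, with a median of 0.10, against 9.61% higher and a median of 0.13 for all 1020 genes of that length. The 2 members over 1000 and up to 1500 bp long had no call, where 38 of 961 genes were higher and 47 lower. Of the 4 members over 1500 and up to 2000 bp long 1 was lower, NDE1, and their median was -0.37. Among all 680 genes of that length 53 were lower, with a median of -0.06. The means of the 13 shortest members spread from 0.07 to 1.33.

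**Figure D3:**
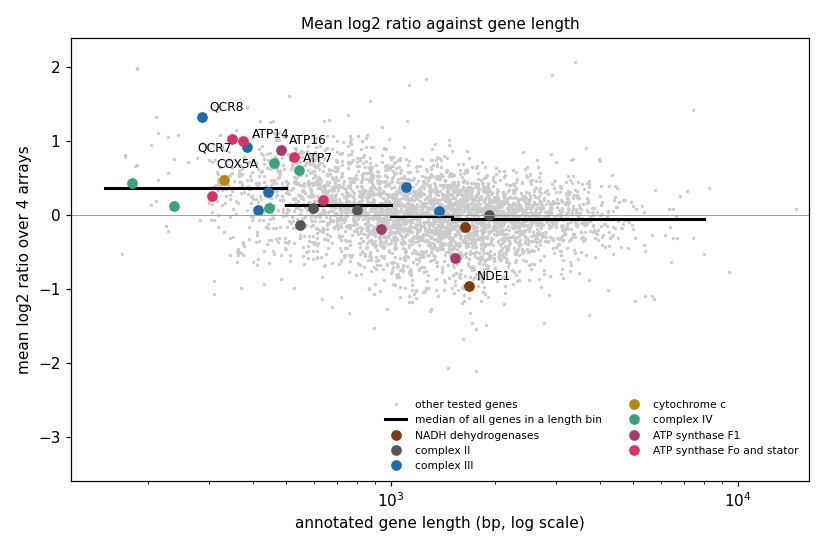
Mean log2 ratio over 4 arrays (vertical axis) against annotated gene length in bp (horizontal axis, log scale); grey points are the other tested genes, black lines the median of all genes in 5 length bins (the end bins reach past the drawn lines) and coloured points the 26 tested members. The medians of the bins fall from 0.36 for genes of up to 500 bp to -0.05 for those over 2000 bp, and QCR8 and NDE1 lie far from the line of their bin.

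With a smooth trend on gene length removed from each array, 5 of the 7 calls remained, 4 of them higher and 1 lower, where 12.5% of all 3821 genes passed, 196 higher and 282 lower. They were QCR8 (mean 0.95, adjusted p = 0.0102), ATP14 (0.68, 0.0234), ATP16 (0.61, 0.0353), ATP7 (0.53, 0.0399) and NDE1 (-0.89, 0.0163). QCR7 and COX5A no longer passed, with means of 0.60 and 0.42 (adjusted p = 0.0528 and 0.133). The median of the 26 members became 0.01 in place of 0.23, and 13 of them had a mean above 0. Complex IV then had a median of -0.00, complex III 0.24 and the Fo and stator genes 0.53, while complex II was at -0.09 and F1 at -0.25.

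The dye orientations were set side by side because the direction of the values is not given. The means over arrays 1 and 3 and over arrays 2 and 4 were 1.37 and 1.30 for QCR8, 0.85 and 0.92 for ATP16, and 0.68 and 0.89 for ATP7. They were -1.12 and -0.80 for NDE1, 1.19 and 0.82 for ATP14, and 1.10 and 0.73 for QCR7. The orientations lay further apart for COX5A (0.46 and 0.94), and for ATP20, which did not pass, they were 1.69 and 0.37. Both means were above 0 for 14 of the 26 members, against 33.6% of all genes. Both were below 0 for 4 members, against 1126 of all 3840 genes. The sign was thus the same in both orientations for 18 of the 26 members and for 2417 of the 3840 genes. In the other 8 members the sign differed, and these were all 4 complex II genes, COR1, QCR9, COX6 and ATP5. None of them passed the test, and opposite signs by themselves draw a mean toward 0.

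**Figure D4:**
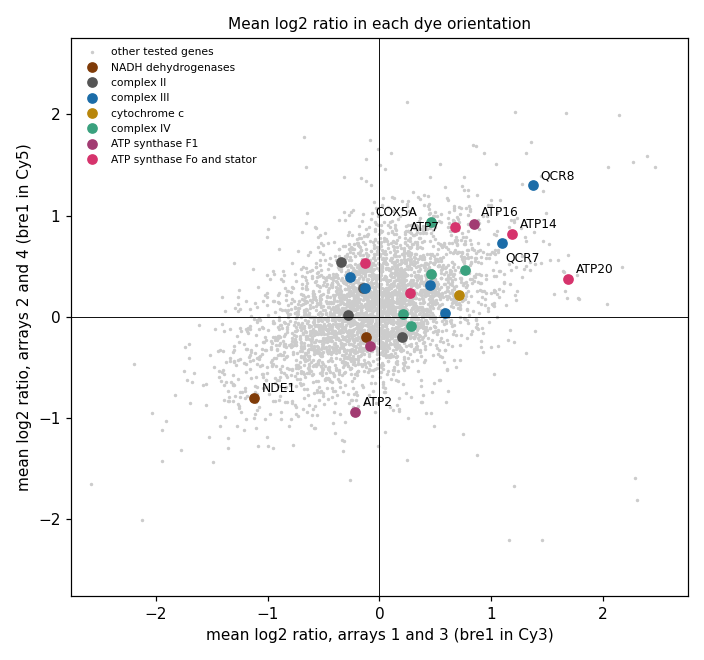
Mean log2 ratio over arrays 2 and 4 (vertical axis, bre1 in Cy5) against that over arrays 1 and 3 (horizontal axis, bre1 in Cy3); grey points are the other tested genes and coloured points the 26 tested members. The 6 higher genes lie in the upper right quadrant, with QCR8 at 1.37 and 1.30, and NDE1 lies in the lower left.

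The other genes of the pathway were counted from 9 lists of assembly factors, cofactor synthesis, carriers and regulators. Over these lists 66 genes were tested, 2 of which were higher and 1 lower, with a median of 0.02. That is 4.55% called, against 10.7% of all genes. Both higher genes serve complex IV: COX20, which assists the maturation of its mitochondrially encoded subunit Cox2, had values of 1.12, 0.66, 0.53 and 0.42 (mean 0.68 ± 0.31, SD, n = 4, adjusted p = 0.0372). COX17, the copper chaperone of complex IV, had 2.18, 1.20, 2.16 and -0.22, with array 4 alone below 0, as for ATP20 (mean 1.33 ± 1.13, adjusted p = 0.0483). Its mean was 2.17 over arrays 1 and 3 and 0.49 over arrays 2 and 4. Of the 18 tested complex IV assembly genes these were the only calls, and the list's median was 0.25. COX17 is 210 bp long, and 20.7% of all tested genes of up to 500 bp were higher. COX20 is 618 bp long, and 9.61% of those over 500 and up to 1000 bp were higher.

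The lower gene was NCA3, listed for its reported part in the expression of mitochondrially encoded ATP synthase subunits and a member of the SUN family of cell wall proteins. Its values were -1.34, -0.93, -0.85 and -0.60 (mean -0.93 ± 0.31, adjusted p = 0.0189). It was the only call among 10 tested genes of ATP synthase assembly and expression, whose median was -0.04. Beside it stand medians of 0.78 for the Fo and stator subunits, -0.19 for F1 and 0.52 for all tested ATP synthase subunits. The median lengths were 1650 bp for the assembly and expression genes, 375 bp for Fo and stator and 936 bp for F1. The differences were not tested.

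The remaining lists held no call. The 5 tested genes of complex III assembly and translation had a median of 0.15, and CBS2, a translational activator of the cytochrome b message, had the smallest p (mean 0.20 ± 0.07, adjusted p = 0.374). The 6 tested genes of complex II assembly and its paralogs had a median of 0.36, led by the assembly factor gene SDH8 (0.53 ± 0.22, adjusted p = 0.0583). Ubiquinone synthesis had a median of 0.22 over 5 genes, led by COQ5, a methyltransferase of that pathway (0.53 ± 0.43, adjusted p = 0.0991). Heme synthesis and attachment had a median of -0.10 over 10 genes, 6 of them with a mean below 0. The gene with the smallest p lay on the other side: CYT2, which attaches heme to cytochrome c1 (0.51 ± 0.30, adjusted p = 0.0789).

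Enzymes that feed electrons to the chain by other routes all had means below 0, as NDE1 did, but none passed. The median of CYB2, DLD1 and GUT2 was -0.50, and CYB2, the lactate dehydrogenase that reduces cytochrome c directly, was below 0 on all 4 arrays (mean -0.59 ± 0.41, adjusted p = 0.0715). The 5 tested carrier and porin genes had a median of -0.23, with POR2 at -0.45 ± 0.40 (adjusted p = 0.14). Among 4 tested transcription regulators, HAP4, which encodes the activating subunit of the CCAAT-binding complex of respiratory genes, had values of -0.36, -0.11, -0.00 and -0.10. Its mean of -0.14 ± 0.15 did not pass (adjusted p = 0.559), and the median of the regulators was -0.07.

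Among other mitochondrial groups, the enzymes of the tricarboxylic acid cycle other than complex II had none of 12 tested genes higher and 2 lower, ACO1 (aconitase, mean -0.88 ± 0.56, adjusted p = 0.038) and CIT3 (a citrate synthase, -0.68 ± 0.25, adjusted p = 0.0338). That is 16.7% lower, against 4.79% of all genes. Their median was 0.03, the same as that of complex II. Mitochondrial ribosomal proteins had 5 of 46 tested genes higher (10.9%) and none lower, with a median of 0.32. Of all genes 5.89% were higher, and 9.61% of those over 500 and up to 1000 bp long. The 3 of these with the smallest p were MRPL36 (0.88 ± 0.14, adjusted p = 0.0156), RSM10 (0.78 ± 0.28, 0.0256) and MRPL16 (0.72 ± 0.33, 0.0344). The median lengths were 1416 bp for the tricarboxylic acid cycle genes and 676.5 bp for the ribosomal protein genes, against 504 bp for the members. Whether the groups differ from the members was not tested.

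**Figure D5:**
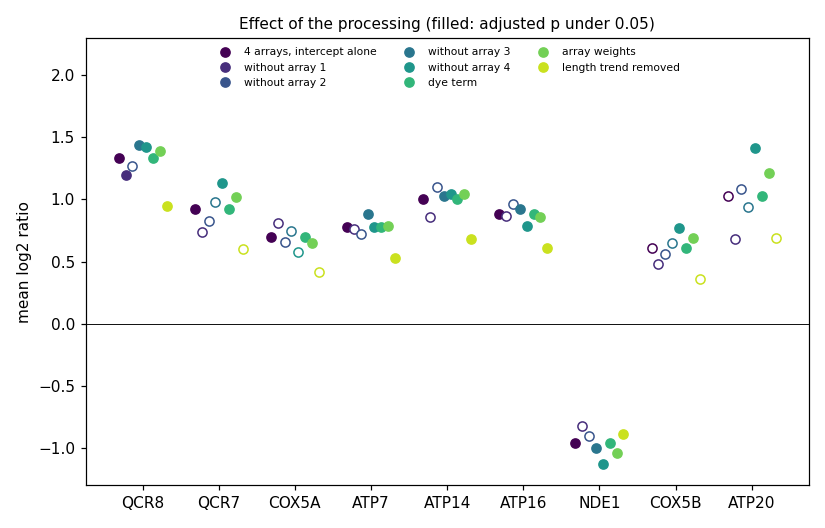
Mean log2 ratio (vertical axis) of the 7 genes that passed and of COX5B and ATP20 under 8 ways of processing the same values; filled points have an adjusted p under 0.05 and open points do not. Every mean keeps its sign. With an array left out this had to be so for all genes shown but ATP20, because their 4 arrays lie on the same side of 0. The calls are open most often without arrays 1 and 2, and removal of the length trend lowers QCR8 from 1.33 to 0.95.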

How the data were processed

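Polyadenylated RNA was measured on 4 two-colour arrays, which form 1 group with opposite dye orientations in equal number. The authors deposited 1 log ratio per reading frame and array, read here as log2. How these ratios were background-corrected, normalized and filtered, their direction and their log base were not given in the sources used here. Scanner signals were not used, so signal over background is unknown, and having only 4 arrays limits the precision. On centred arrays a ratio would be relative to the rest of the array. RefSeq's table of R64 genes gave names for 5470 of the 5500 frames, and gene lengths with introns.

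Genes with a value on all 4 arrays were tested with limma 3.58.1 under R 4.3.3 (an intercept in lmFit, then eBayes, two-sided, Benjamini-Hochberg over 3840 genes, threshold 0.05). The fit was tested on simulated data with independent errors for each gene and array. Those data held no effect shared by arrays of a dye orientation, so that run cannot speak to such effects here. Errors are SDs over arrays, and intervals of means are limma's at 95%. The alternatives were each array left out, values on at least 3 arrays, a dye term, median centring, scaling of the arrays, array weights, a robust variance prior, and a loess trend on log2 length (span 0.3) removed from each array, over the 3821 genes with a length. All members are named by rule, and of each other list up to 3 genes past the threshold with the smallest p, or else the gene with the smallest p. The members and lists were chosen with earlier results of these data known. Planned counts of promoter motifs were not run.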

Additional observations from a re-analysis of the deposited data

How the results depend on the processing

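The 7 calls among the members were the same genes with values on at least 3 arrays, with median centring, with scaled arrays and with a robust variance prior. A dye term added COX5B, CYC1 and ATP20 (10 calls), array weights added COX5B and ATP20 (9), and removal of the length trend left 5 (478 of all genes). With 1 array left out, the fits had fewer arrays and unbalanced dye orientations. The members called then ranged from 0 to 8 and all genes called from 0 to 677, against 410 with all arrays. A dye term gave 897 genes and array weights 685. Without array 2 no gene passed in limma, with 815 at an unadjusted p under 0.05. The median of complex III was 0.24, of complex IV -0.00 and of the Fo and stator genes 0.53 with the length trend removed. That of the NADH dehydrogenases was -0.16 over values on at least 3 arrays, which adds NDI1. With 1 array left out the medians ranged from 0.68 to 0.88 for the Fo and stator genes, from 0.28 to 0.45 for complex III, from 0.36 to 0.53 for complex IV, from -0.09 to 0.04 for complex II, from -0.32 to 0.01 for F1 and from -0.60 to -0.49 for the NADH dehydrogenases. Each array already pairs bre1 with wild type in its ratio, and no further replicate block could be fitted within 1 group.

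The sign of no called member changed. Each had all 4 arrays on the same side of 0, so leaving out or weighting arrays could not change it. Removal of the length trend could have. Among members that did not pass, removal of the length trend turned COX6 (-0.19), COX8 (-0.29), COX9 (-0.00), QCR9 (-0.23), ATP5 (-0.01), ATP17 (-0.11), SDH1 (0.08), SDH2 (-0.06) and SDH3 (-0.13). Array weights turned SDH1 (0.02) and SDH3 (-0.02). With 1 array left out the mean ranged from -0.05 to 0.36 for COX6, from -0.08 to 0.18 for COR1, from -0.02 to 0.18 for QCR9, from -0.32 to 0.01 for ATP3, from -0.06 to 0.36 for ATP5, from -0.09 to 0.07 for SDH1, from -0.02 to 0.17 for SDH2 and from -0.16 to 0.34 for SDH3.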

Other observations

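The genes next to the 7 called members in the R64 gene order were examined after the values had been seen. None of the 14 neighbours overlaps its member in the annotation, and how often neighbours overlap over all genes was not counted. Of the 14, 10 were tested and none passed in limma, against 10.7% of all 3840 genes. So few genes cannot tell these shares apart. An unadjusted p under 0.05 in limma was seen for 1 neighbour and for 1158 of all genes. The means of the neighbours lay between -0.23 and 0.55. On either side of ATP16, MED2 and MCD1 had means of 0.23 ± 0.49 and 0.25 ± 0.39 (SD, n = 4 arrays). Beside QCR8, ERG20 had a mean of 0.34 ± 0.58 and HAL5 was measured on 2 arrays, at a mean of -0.14. Beside NDE1, TIF34 had 0.45 ± 0.34, the opposite sign to NDE1.

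Across the 26 tested members, arrays 1 and 3 had a Pearson r of 0.88, arrays 1 and 2 of 0.78 and arrays 1 and 4 of 0.32, against 0.75, 0.65 and 0.24 over all 3840 genes (a description across genes that share the arrays). Array 4 thus ordered the members least like array 1, as it did all genes less like array 1 than arrays 2 and 3 did. Arrays 1 and 3 share a dye orientation, and arrays 1 and 4 do not. Arrays 2 and 4, which share the other orientation, had an r of 0.54 over the members and over all genes. For arrays 2 and 3, of opposite dye, r was 0.58 and 0.31, and for arrays 3 and 4 it was 0.36 and 0.20. ATP20 shows the size of the difference between arrays 1 and 4: it lay above 99.8% of the values on array 1 and above 32.5% of them on array 4. QCR8 lay above 97.4% or more on every array.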
